A study of Mus musculus with 15 samples.

Results

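Collagen genes were followed through brain RNA-sequencing libraries of a mouse model of Parkinson's disease. Symbols of the form Col, number, a, number were taken from the deposited gene list, Col1a1 and Col1a2 were left out, and genes with at least 10 reads in at least 3 libraries were kept. All 42 remaining symbols met this minimum, out of 45777 symbols in all. The gene nearest the limit was Col10a1, a chain of cartilage collagen, which had 0 to 16 reads and reached 10 reads in 6 libraries, while the other 41 genes had at least 10 reads in all 15. All 42 also passed the filter on low counts used for testing.

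The study asked how an inhibitor of Bruton's tyrosine kinase (BTK), a signalling enzyme of B cells and microglia, acts in mice given MPTP, a toxin of dopamine neurons. Control mice received a normal diet and no MPTP. The MPTP group received 20 mg/kg/day of MPTP by intraperitoneal injection for 1 week, and the 3 drug groups received the same MPTP course and then 4 weeks of treatment. Levodopa, the dopamine precursor used in patients, was given at 2 mg/kg/day, and the labels give its route as oral in one place and intraperitoneal in another. The inhibitor was given at a low dose of 1 µg/kg/day or a high dose of 2 µg/kg/day, which the sample labels also write as 25 and 50 pM. Each of the 5 groups had 3 libraries of tissue labelled brain, with no region named, collected at 6 weeks, while the protocol describes 8 mice per group. Whether every library comes from its own mouse is not stated. The p-values set differences between groups only against the scatter among these samples, and that scatter may be technical.

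Collagens are proteins of the extracellular matrix whose alpha chains wind into helical trimers, and some types combine chains from more than 1 gene. In the brain the chains encoded by Col4a1 and Col4a2 form the network of the basement membrane around blood vessels, where endothelial cells and pericytes deposit them, and the collagens of Col15a1 and Col18a1 lie in the same sheath. Fibrillar and type VI collagens are made mainly by fibroblasts of the meninges and of larger vessels. Some collagens are made by neurons, among them Col19a1, needed for inhibitory synapses, and the membrane-spanning collagens of Col23a1 and Col25a1. The 42 genes were therefore divided into 4 vascular basement membrane genes (Col4a1, Col4a2, Col15a1, Col18a1), 4 minor type IV chains (Col4a3 to Col4a6), 8 meningeal and fibroblast genes (Col3a1, Col5a1, Col5a2, Col6a1, Col6a2, Col6a3, Col12a1, Col14a1), 5 neuronal genes (Col11a1, Col19a1, Col23a1, Col24a1, Col25a1), 3 short-chain genes (Col8a1, Col8a2, Col10a1) and 18 others.

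Sequencing depth lay between 58149722 and 61998459 counted reads in the 6 inhibitor libraries and between 63314658 and 68257095 in the other 9. The deposited counts also came with 24 empty trailing columns for those 6 libraries and 51 for the other 9. Depth, this layout and inhibitor treatment therefore cannot be told apart. The 42 genes together took 0.0607% to 0.109% of the counted reads. Levels are given as CPM (counts relative to library size, scaled by TMM factors), and 3 reads in the shallowest library correspond to 0.0516 CPM. Markers of astrocytes (2620 to 3630 CPM summed over 6 genes) and oligodendrocytes (5220 to 13200 CPM over 7 genes) were high in every library, as the label brain requires. Markers of brain regions differed between libraries. Control 2 and levodopa 2 had 4610 and 3700 CPM summed over 6 cerebellar neuron genes, against 75.5 to 253 CPM in the other 13. Markers of striatal neurons (7 genes) summed to 2050, 244 and 291 CPM in controls 1, 2 and 3, to 114 to 158 CPM after MPTP, to 163 to 255 CPM with levodopa, to 1040 to 1360 CPM at the low dose and to 417 to 1120 CPM at the high dose. Choroid plexus markers (10 genes) summed to 100, 139 and 966 CPM in controls 1, 2 and 3, 23.0 to 49.2 CPM with levodopa, 30.3 to 39.3 CPM after MPTP alone, 911 to 1430 CPM at the low dose and 303 to 1490 CPM at the high dose. Gpr6 on the striatal list, Shox2 on the thalamic and midbrain list, and Gabra6 and Pcp2 on the cerebellar list were at 0 in at least 1 library. The part of these regional markers in the results below was not tested. In bulk tissue, fewer cells of a type and less RNA per cell cannot be told apart.

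Set per kilobase of exon, the most abundant collagen RNA was that of Col4a2 (median 12.0 CPM per kb over 15 libraries), followed by Col6a1 (11.2 CPM per kb), Col25a1 (8.70 CPM per kb), Col9a3 (7.65 CPM per kb) and Col11a2 (7.26 CPM per kb). Abundant collagen RNAs thus came from a vascular, a fibroblast and a neuronal gene. Col4a1 had 5.47 CPM per kb, Col18a1 2.57 CPM per kb and Col15a1 2.15 CPM per kb. Fibrillar Col3a1, typical of meningeal fibroblasts, had 0.450 CPM per kb, and the minor type IV chains had 0.137 (Col4a3) to 1.06 CPM per kb (Col4a5). The lowest was Col10a1 at 0.0311 CPM per kb. Neighbours in this order overlapped widely across libraries, since Col4a2 alone ranged from 14.8 to 133 CPM and Col6a1 from 10.9 to 238 CPM.

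**Figure D1:**
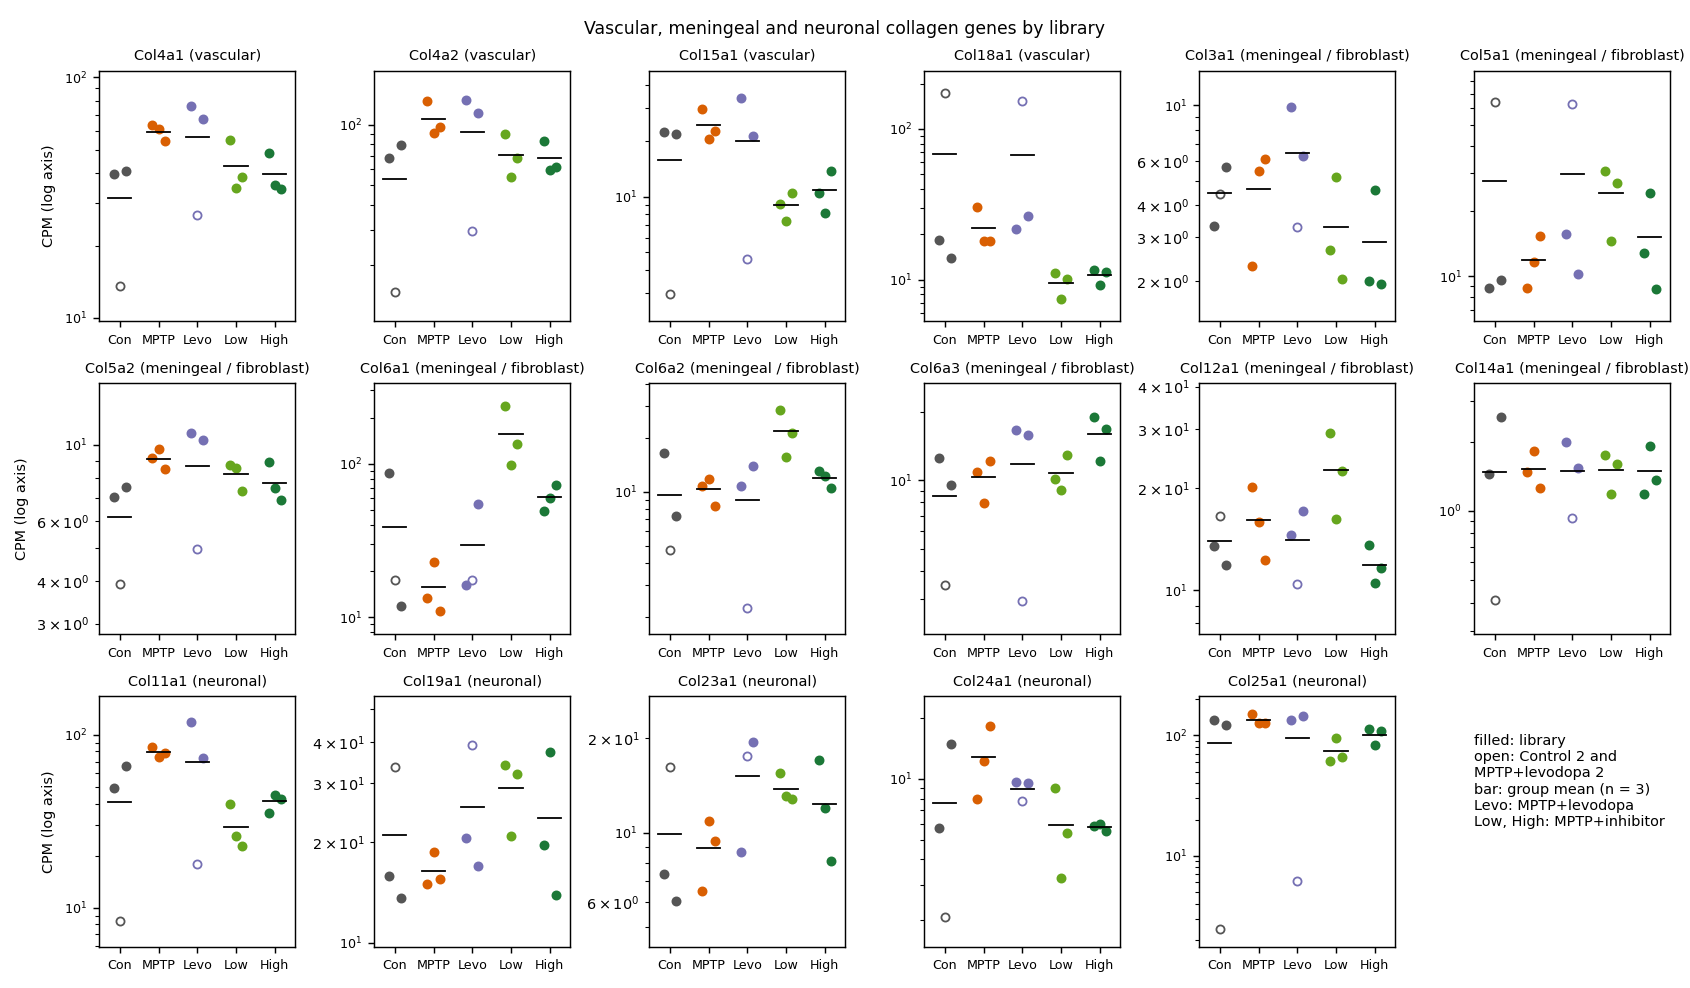
Levels of the 17 vascular, meningeal and neuronal collagen genes, 1 panel per gene, in CPM on a log axis whose range differs between panels. Points are libraries, bars are means of 3 libraries, and open points mark control 2 and levodopa 2, the libraries with high cerebellar markers; Col6a1 stood highest in the 3 low-dose libraries (97.5 to 238 CPM) and Col25a1 lowest in the open points (2.45 and 6.20 CPM).

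The comparison of each inhibitor dose with MPTP alone asked what the inhibitor changed in mice that had received MPTP. At the low dose, Col6a1 rose and Col6a6, Col2a1 and Col9a2 fell, so 4 of 42 collagen genes passed the edgeR quasi-likelihood test at a Benjamini-Hochberg adjusted p under 0.05, beside 8.53% of the 21821 genes tested (4.78% higher and 3.75% lower). The share of collagen genes was thus near that of all genes. At the high dose 0 of 42 passed, beside 1.97% of all genes, 6 reached an unadjusted p below 0.05, and DESeq2 called 3 (Col6a1 higher, Col2a1 and Col6a6 lower) beside 7.39% of all genes. At the low dose DESeq2 called these 4 genes and Col9a3, beside 14.5% of all genes. Both comparisons use the same 3 MPTP libraries, as do those of MPTP with control and with levodopa.

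Col6a1 encodes the alpha-1 chain of type VI collagen, a microfibril of connective tissue (chromosome 10, 76708792 to 76726044 of GRCm38.p6). It had 13.3, 22.8 and 10.9 CPM in the MPTP libraries and 238, 97.5 and 135 CPM in the low-dose libraries. The groups did not overlap, and low-dose replicate 1 was highest. The log2 fold change was 3.32 (standard error 0.74, edgeR adjusted p = 0.0196), from 15.7 ± 6.32 to 157 ± 72.5 CPM (SD, n = 3 each). At the high dose it had 49.1, 59.8 and 72.8 CPM, again above all MPTP libraries, with a log2 fold change of 1.95 (standard error 0.70, adjusted p = 0.16). Control 1 had 87.1 CPM and controls 2 and 3 had 17.6 and 11.8 CPM. Libraries with high Col6a1 were thus also found outside the inhibitor groups. Control 1 was the control with high striatal markers (2050 CPM), and levodopa 3, with 55.0 CPM of Col6a1, had 254 CPM of them. Levodopa 2 had 255 CPM of striatal markers and 17.5 CPM of Col6a1. The part of striatal markers in the Col6a1 values was not tested. The low-dose rise in Col6a1 kept its call when low-dose replicate 2 was left out (adjusted p = 0.0265), while leaving out any of the other 5 libraries gave adjusted p from 0.0515 (without low-dose replicate 3) to 0.0913 (without MPTP replicate 3).

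Of the other 5 type VI chains, Col6a6 fell at the low dose and 4 did not pass the edgeR test. Col6a2, the alpha-2 chain and a neighbour of Col6a1 on chromosome 10, had 10.8, 11.7 and 8.34 CPM after MPTP and 28.6, 15.6 and 21.1 CPM at the low dose, without overlap, with a log2 fold change of 1.09 (standard error 0.55, edgeR adjusted p = 0.233). Col6a2 was called higher with only the 2 groups fitted (adjusted p = 0.012) and without control 2 and levodopa 2 (adjusted p = 0.019). Col6a3, the long alpha-3 chain, had 10.9, 7.94 and 12.2 CPM after MPTP and 10.1, 9.11 and 13 CPM at the low dose, so the groups overlapped. The groups also overlapped for Col6a4 (log2 fold change 0.82) and Col6a5 (-0.09), chains related to alpha-3. Col6a6, a chain related to alpha-3 that lies on chromosome 9 (105689417 to 105828246), had 2.93, 2.89 and 1.72 CPM after MPTP and 0.472, 0.292 and 0.578 CPM at the low dose. Here the low-dose libraries were all below the MPTP libraries. Its log2 fold change was -2.49 (standard error 0.51, edgeR adjusted p = 0.0140), and leaving out MPTP replicate 2 gave adjusted p = 0.0538. The high-dose libraries had 1.06, 0.551 and 0.757 CPM of Col6a6 (log2 fold change -1.67, SE 0.49, edgeR adjusted p = 0.0953). Col6a6 is a rare RNA, read 18 to 200 times per library.

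Because Col6a1 rose and Col6a6 fell, the sequences before their RefSeq start sites are shown with that of Col6a2, the neighbour of Col6a1 (GRCm38.p6, minus strand, only bases that overlap no annotated exon). Capitals mark GGGCGG, the core of the GC box bound by Sp1-family factors, or its reverse complement; CCAAT and TATAAA were also searched on both strands. The Col6a1 stretch is chr10:76726169-76726294, that of Col6a2 is chr10:76623631-76623880, and that of Col6a6 is chr9:105828161-105828335.
Col6a1: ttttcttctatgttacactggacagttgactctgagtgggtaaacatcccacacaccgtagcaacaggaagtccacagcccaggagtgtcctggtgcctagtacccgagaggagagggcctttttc
Col6a2: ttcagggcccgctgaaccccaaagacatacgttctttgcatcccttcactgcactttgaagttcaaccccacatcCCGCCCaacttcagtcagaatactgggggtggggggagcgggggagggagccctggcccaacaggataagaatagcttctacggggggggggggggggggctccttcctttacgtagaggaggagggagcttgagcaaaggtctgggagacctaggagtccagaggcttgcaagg
Col6a6: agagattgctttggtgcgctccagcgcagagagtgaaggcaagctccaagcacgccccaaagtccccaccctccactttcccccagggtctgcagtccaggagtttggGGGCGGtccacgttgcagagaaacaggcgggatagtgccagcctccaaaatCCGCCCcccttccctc
None of the 3 motifs lay in the Col6a1 stretch, 1 GGGCGG lay in that of Col6a2 and 2 in that of Col6a6. These counts cannot be set against each other, since the stretches have 126, 250 and 175 bases. They also lie at unlike distances from their start sites, at 76726044, 76623630 and 105828085. The table holds a second Col6a2 start site, at 76623404, whose window is not shown, overlaps a Col6a2 exon and holds 3 GGGCGG. The RefSeq promoter table held 37 windows, from 250 bases before to 50 bases after a start site, for 34 of the 42 genes. GGGCGG was in 22 of these 37 windows (59.5%) and in 35.7% of all 32851 windows, CCAAT in 12 (32.4%) and in 37.4% of all, and TATAAA in 5 (13.5%) and in 13.6% of all.

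Of the 8 meningeal and fibroblast genes, 1 rose at the low dose (Col6a1), 0 fell and 7 did not pass. Their median log2 fold change was 0.27 at the low dose and 0.09 at the high dose, beside medians of -0.00 and -0.01 over all genes tested. Col3a1 had 2.30, 5.48 and 6.11 CPM after MPTP, 2.65, 5.18 and 2.03 CPM at the low dose and 1.94 to 4.62 CPM at the high dose, with overlap in both. Col5a1, a chain that starts collagen fibrils, had 8.85 to 15.3 CPM after MPTP, 14.5 to 30.9 CPM at the low dose and 8.69 to 24.2 CPM at the high dose. Col5a2, its partner chain, had 8.49 to 9.70 CPM after MPTP and 6.88 to 8.90 CPM over the 6 inhibitor libraries. Col12a1, a collagen on the surface of fibrils, had 12.3 to 20.2, 16.2 to 29.2 and 10.5 to 13.6 CPM after MPTP and at the low and high doses, and the similar Col14a1 had 1.26 to 1.82, 1.19 to 1.75 and 1.19 to 1.92 CPM. For these 5 genes the low-dose libraries overlapped the MPTP libraries. Markers of the leptomeninges other than collagens (12 genes) summed to 74.5 to 171 CPM after MPTP, 107 to 210 CPM at the low dose and 83.0 to 138 CPM at the high dose. By edgeR 0 of 12 passed at either dose, with 0 and 1 at an unadjusted p under 0.05 and 0 and 1 called by DESeq2. The mean log2 CPM of the 8 collagens minus that of these 12 markers was -0.19 to 0.99 after MPTP. It was 0.07 to 1.36 at the low dose and 0.41 to 1.07 at the high dose.

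The 4 vascular basement membrane genes were all lower in the mean at both doses than after MPTP alone, but none passed the edgeR test. Col15a1, a proteoglycan collagen of the vessel sheath, had 29.9, 20.4 and 22.5 CPM after MPTP, 9.13, 7.40 and 10.4 CPM at the low dose and 10.5, 8.20 and 13.7 CPM at the high dose. Every inhibitor library was below every MPTP library, with log2 fold changes of -1.43 (standard error 0.68, edgeR adjusted p = 0.204) and -1.17 (SE 0.67, edgeR adjusted p = 0.390). Col18a1, whose protein releases the angiogenesis inhibitor endostatin, had 30.3, 18.0 and 18.0 CPM after MPTP, 11.1, 7.47 and 10.1 CPM at the low dose and 11.7, 9.21 and 11.3 CPM at the high dose. These groups did not overlap either, and the log2 fold changes were -1.21 (standard error 0.88, edgeR adjusted p = 0.427) and -1.04 (SE 0.88, edgeR adjusted p = 0.587). Col4a1 had 63.4, 60.8 and 54.1 CPM after MPTP, 54.9, 34.6 and 38.5 CPM at the low dose and 48.6, 35.6 and 34.2 CPM at the high dose. Only the high dose was clear of the MPTP range, by log2 fold changes of -0.48 (low, SE 0.41) and -0.59 (high, SE 0.41) with edgeR adjusted p of 0.502 and 0.482. Col4a2 had 132, 90.7 and 97.7 CPM after MPTP, 90.6, 55.0 and 68.1 CPM at the low dose and 82.9, 59.8 and 61.8 CPM at the high dose. Its groups did not overlap at either dose, with log2 fold changes of -0.58 (standard error 0.55) and -0.65 (SE 0.56).

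The count of vascular genes whose 3 libraries all lay below the 3 MPTP libraries was 3 of 4 at the low dose and 4 of 4 at the high dose. Over all genes tested, 19.8% and 19.4% did so. The list medians were -0.90 and -0.84. In a fit without control 2 and levodopa 2, whose levels of these genes differ widely from the rest, Col15a1, Col18a1 and Col4a2 fell at the low dose (edgeR adjusted p = 0.00187, 0.00362 and 0.0457) and Col15a1, Col18a1 and Col4a1 fell at the high dose (edgeR adjusted p = 0.0126, 0.0169 and 0.0461). That fit called 15 of 42 collagen genes at the low dose, beside 23.7% of all genes, and 10 at the high dose, beside 11.1% of all genes, with log2 fold changes for Col15a1 of -1.44 and -1.17. Fitting only the groups compared called 15 (6 higher and 9 lower) and 15 (4 higher and 11 lower), beside 20.8% and 17.5%.

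Endothelial markers were also lower in the inhibitor libraries than after MPTP alone. Of 12 markers, 9 fell at the low dose and 7 at the high dose against MPTP by edgeR (8.53% and 1.97% of all genes were called), among them Flt1, a receptor of vascular growth factor (72.8 ± 18.2 CPM after MPTP, 30.7 ± 11.2 CPM at the low dose and 20.7 ± 5.06 CPM at the high dose, SD, n = 3 each), with medians of -1.06 and -1.16 over the 12 genes. Leaving out MPTP replicate 2, MPTP replicate 3, low-dose replicate 2 or low-dose replicate 3 brought the 9 down to 1, 1, 2 and 1. Leaving out MPTP replicate 2, MPTP replicate 3 or high-dose replicates 1, 2 or 3 brought the 7 down to 0, 0, 2, 0 and 1. Against control, edgeR called 1 of 12 lower at the low dose and 0 at the high dose, beside 5.4% and 0.376% of all genes. The medians against control were -0.29 and -0.46. In MPTP against control all 12 log2 fold changes were above 0 and 10 had an unadjusted p below 0.05, with 0 called by edgeR. The summed endothelial level was 349 to 566 CPM after MPTP, 223 to 305 CPM at the low dose and 206 to 250 CPM at the high dose, and none of the 12 was at 0 in any library. Pericyte and smooth muscle markers (10 genes) summed to 183 to 317, 150 to 191 and 149 to 153 CPM in the same groups. Set against the endothelial markers of the same library, Col4a1 and Col4a2 were not lower in the inhibitor groups. The mean log2 CPM of the pair minus that of the 12 markers was 1.12 to 2.15 after MPTP, 1.73 to 1.96 at the low dose and 1.85 to 2.18 at the high dose. For the 4 vascular genes together this difference was 0.14 to 1.35, 0.56 to 0.68 and 0.90 to 0.93. Col4a1 and Col4a2 fell least of these 4 genes. Col15a1 and Col18a1 had log2 fold changes of -1.43 and -1.21 at the low dose, beside the marker median of -1.06. At the high dose they had -1.17 and -1.04, beside -1.16. The part of endothelial content in the collagen values was not tested.

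**Figure D2:**
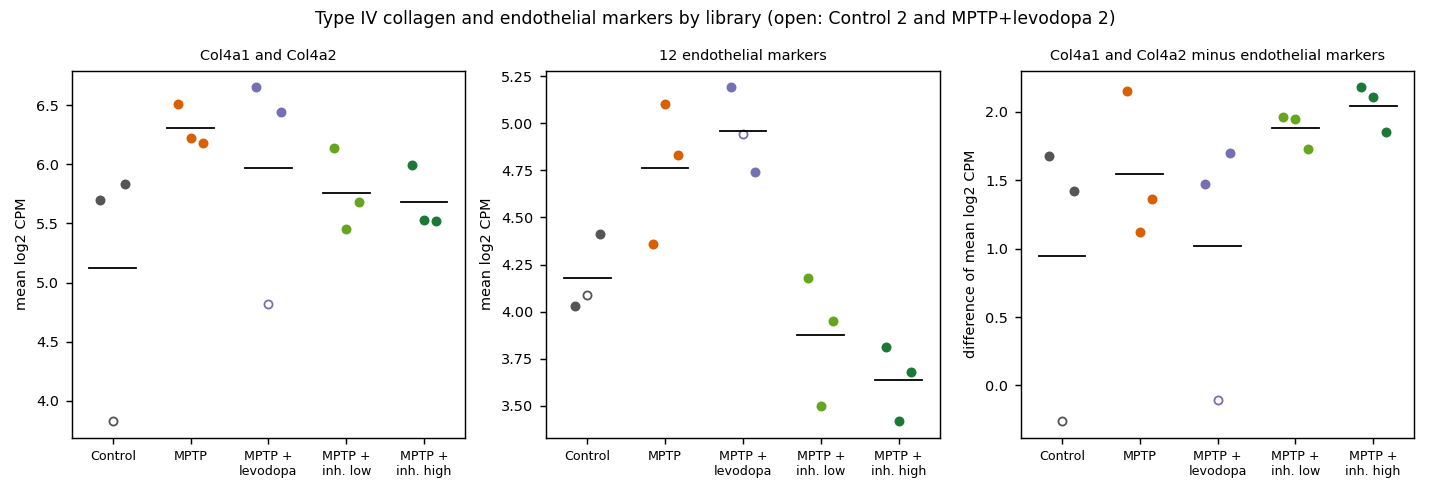
Mean log2 CPM of Col4a1 and Col4a2 (left), mean log2 CPM of 12 endothelial markers (middle) and the left value minus the middle value (right), by library and group. Points are libraries, bars are means of 3, and open points are control 2 and levodopa 2; the 6 inhibitor libraries had differences of 1.73 to 2.18, inside or just above the 1.12 to 2.15 of the MPTP libraries.

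Among the 5 neuronal genes, 2 lay above and 2 below the MPTP range in all low-dose libraries, beside 20.9% and 19.8% of all genes, and none passed the edgeR test. Col11a1, a fibril-forming chain, had 84.4, 74.6 and 78.4 CPM after MPTP, 39.5, 26.0 and 22.7 CPM at the low dose and 35.5, 45.1 and 42.7 CPM at the high dose. The inhibitor libraries were all below the MPTP libraries, with log2 fold changes of -1.43 (standard error 0.65, edgeR adjusted p = 0.189) and -0.94 (SE 0.64, edgeR adjusted p = 0.478). Col25a1, a membrane-spanning collagen found in amyloid plaques, had 151, 127 and 128 CPM after MPTP, 61.9, 95.3 and 66 CPM at the low dose and 113, 82.9 and 109 CPM at the high dose. It showed the same order of groups, with log2 fold changes of -0.86 (standard error 1.04, edgeR adjusted p = 0.648) and -0.42 (SE 1.03, edgeR adjusted p = 0.879). Without control 2 and levodopa 2, Col11a1 fell at both doses (edgeR adjusted p = 0.00158 and 0.0204) and Col25a1 fell at the low dose (edgeR adjusted p = 0.00484).

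Col19a1 had 15, 18.7 and 15.5 CPM after MPTP, 34.1, 20.9 and 32.1 CPM at the low dose and 19.6, 37.3 and 13.9 CPM at the high dose. It was thus above the MPTP range only at the low dose, with a log2 fold change of 0.82 (standard error 0.43, edgeR adjusted p = 0.246), and the difference between doses did not pass. Col23a1 had 6.51, 10.9 and 9.41 CPM after MPTP, 15.5, 13.1 and 12.8 CPM at the low dose and 17, 12.0 and 8.13 CPM at the high dose. Col24a1, a fibrillar collagen of bone and brain, had 8, 12.3 and 18.3 CPM after MPTP, 8.99, 3.25 and 5.43 CPM at the low dose and 5.83, 5.98 and 5.50 CPM at the high dose, with overlap at the low dose only. The list median was -0.86 at the low dose and -0.42 at the high dose, with 2 log2 fold changes above 0 and 3 below 0 at each dose. Cortical and hippocampal markers (8 genes) summed to 66.3 to 163 CPM after MPTP, 834 to 1180 CPM at the low dose and 290 to 952 CPM at the high dose, and thalamic and midbrain markers (6 genes) to 830 to 1110, 164 to 338 and 276 to 603 CPM. The mean log2 CPM of the 5 neuronal collagens minus that of the 8 cortical and hippocampal markers was 2.92 to 4.29 after MPTP. It was -1.62 to -1.24 at the low dose and -1.18 to 0.27 at the high dose. The part of both marker lists in the neuronal collagen values was not tested.

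Both remaining called genes are known from cartilage. Col2a1, the main cartilage fibril, had 7.17, 5.61 and 5.25 CPM after MPTP and 3.76, 2.21 and 3.54 CPM at the low dose, a log2 fold change of -0.92 (standard error 0.22, edgeR adjusted p = 0.0261). Col9a2, a chain of the type IX collagen that coats such fibrils, had 28.7, 15.5 and 15.1 CPM after MPTP and 8.27, 11.2 and 9 CPM at the low dose. Its fall of -1.06 in log2 fold change (SE 0.27, edgeR adjusted p = 0.0338) moved to -0.67 (adjusted p = 0.125) without MPTP replicate 1, the highest library. Col2a1 missed the threshold without any 1 of the MPTP replicates or of low-dose replicates 2 and 3 (adjusted p from 0.0582 to 0.0866), and Col9a2 without any MPTP replicate or low-dose replicates 1 or 3 (from 0.0551 to 0.125). At the high dose Col2a1 had 3.67 to 3.82 CPM and Col9a2 had 11.4 to 13.9 CPM, all below the MPTP libraries, with edgeR adjusted p of 0.126 and 0.233. Col9a3, the partner chain of Col9a2, went the other way, from 19.7, 20.9 and 17.3 CPM after MPTP to 39.6, 34.4 and 56.5 CPM at the low dose (log2 fold change 1.17, SE 0.37, edgeR adjusted p = 0.0700) and 27.9, 29.7 and 41.2 CPM at the high dose (0.77, SE 0.37, edgeR adjusted p = 0.292). Col16a1, a collagen of fibril surfaces, had 85.2 to 86.3 CPM after MPTP and 29.6 to 45.6 CPM over the 6 inhibitor libraries, without overlap. Col9a3 and Col16a1 did not pass the edgeR test of all 15 libraries at either dose, and were chosen for description after their values were seen. With only the 2 groups fitted, Col9a3 rose (adjusted p = 0.00359 and 0.0216) and Col16a1 fell (adjusted p = 0.00112 and 0.00535) at the low and high dose. Without control 2 and levodopa 2 the adjusted p was 0.00237 and 0.0288 for Col9a3 and 0.00385 and 0.0121 for Col16a1, and DESeq2 called Col9a3 at the low dose (adjusted p = 0.0255).

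Over all 42 genes, 7 lay above and 13 below the MPTP range in all low-dose libraries, beside 20.9% and 19.8% of all genes tested. At the high dose 4 lay above and 16 below, beside 20.4% and 19.4%. The median log2 fold change was -0.26 and -0.43, against -0.00 and -0.01 over all genes tested. No test set the vascular, meningeal and neuronal lists against each other.

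**Figure D3:**
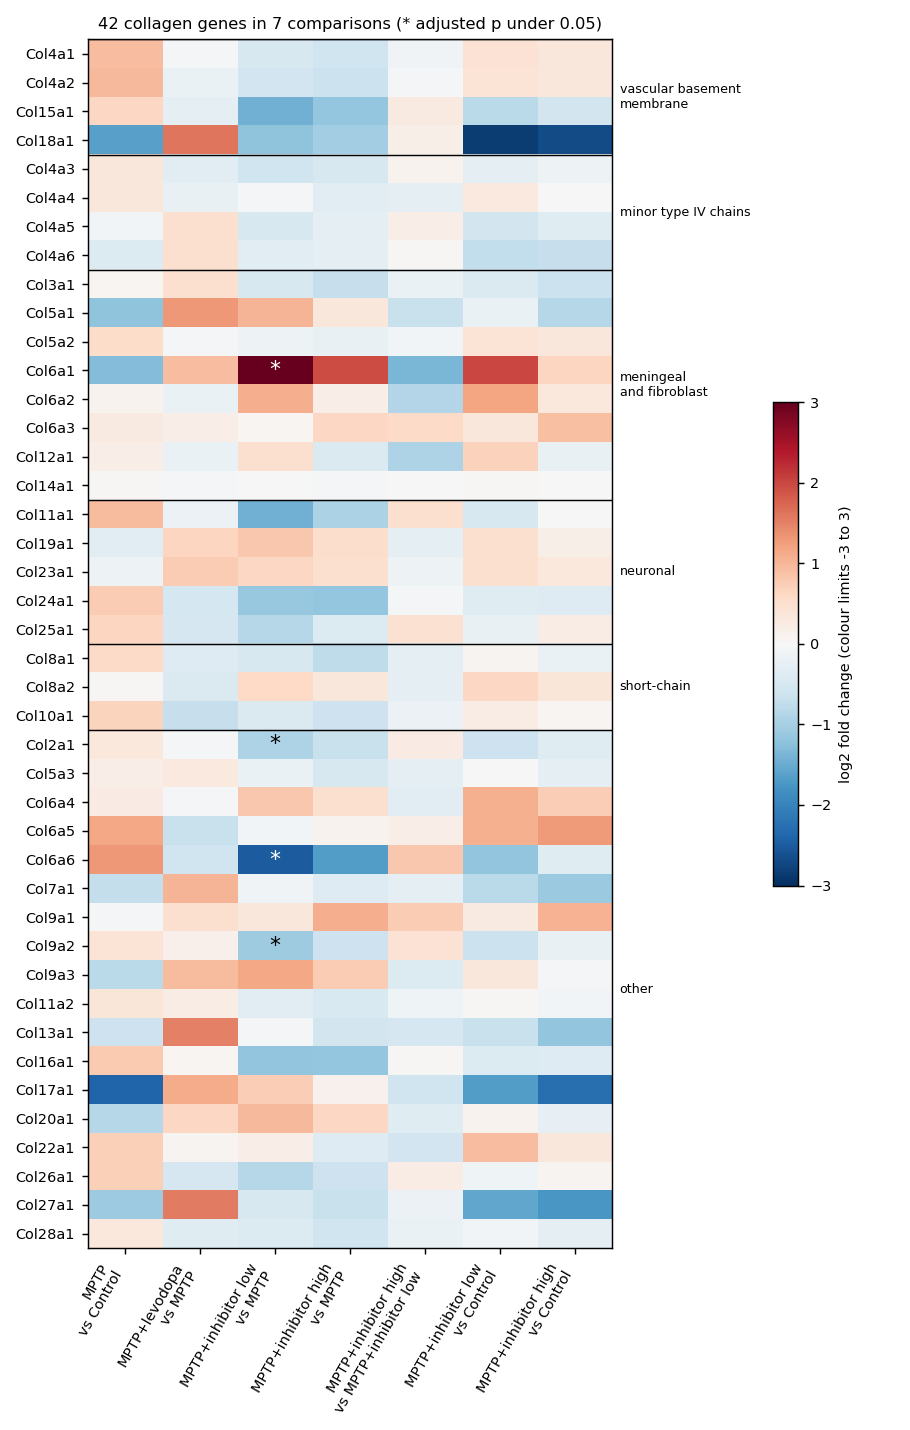
Log2 fold changes of the 42 collagen genes (rows, by list) in 7 comparisons (columns) from the edgeR fit, red for higher and blue for lower in the group named first, with colours capped at -3 and 3. Stars mark the 4 genes with an adjusted p under 0.05, all in the low dose against MPTP column, where Col6a1 had 3.32 and Col6a6 had -2.49.

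MPTP against control asked what the toxin changed. None of the 42 genes passed with edgeR, where 0.0% of all genes passed, 5 collagen genes reached an unadjusted p below 0.05, and DESeq2 called 0 of the 42 and 0.207% of all genes. The type IV pair was higher after MPTP in every library. Col4a1 had 39.7, 13.6 and 40.8 CPM in controls and 54.1 to 63.4 CPM after MPTP, a log2 fold change of 0.92 (standard error 0.41, edgeR adjusted p = 0.717). Col4a2 had 68.4, 14.8 and 79.1 CPM in controls and 90.7 to 132 CPM after MPTP, a log2 fold change of 0.98 (standard error 0.56). Control 2, with high cerebellar markers, was lowest for both, and without it the log2 fold changes were 0.56 and 0.53. Endothelial markers summed to 284 to 359 CPM in controls and 349 to 566 CPM after MPTP. Col6a1 had a log2 fold change of -1.31, which became 0.09 without control 1. The lowest log2 fold change was that of Col17a1 (-2.40), an epithelial anchoring collagen at 8.67 CPM in control 2, and -0.73 without that library. The highest was that of Col6a6 (1.30, from 1.02 ± 0.0858 to 2.51 ± 0.683 CPM, SD, n = 3 each). In all, 7 of 42 genes lay above and 2 below the control range in every MPTP library, beside 6.82% and 6.2% of all genes.

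Levodopa against MPTP asked whether the standard drug changed these genes, and 0 of 42 passed with edgeR, beside 0.0% of all genes. By unadjusted p under 0.05 there were 2, and DESeq2 called 0 of the 42 and 0.00607% of all genes. All levodopa libraries lay above all MPTP libraries for 3 genes and below for 0, beside 4.93% and 4.65% of all genes. The vascular median was -0.14, the meningeal median 0.08 and the neuronal median -0.18. Col18a1 had the highest log2 fold change (1.60), with 21.6, 154 and 26.4 CPM in levodopa 1, 2 and 3, and levodopa 2 alone was outside the MPTP range of 18.0 to 30.3 CPM. Without it the log2 fold change was 0.11.

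The high dose against the low dose asked whether dose mattered. None of the 42 passed with edgeR, beside 0.0% of all genes, 1 reached an unadjusted p below 0.05, and DESeq2 called 0 of the 42 and 0.00607% of all genes. The gene with the low unadjusted p was Col12a1, with 29.2, 16.2 and 22.6 CPM at the low dose and 13.6, 10.5 and 11.6 CPM at the high dose, a log2 fold change of -0.93 (standard error 0.25, edgeR adjusted p = 1.0). Col6a1 had the lowest log2 fold change (-1.37, SE 0.69), and its 3 high-dose libraries (49.1 to 72.8 CPM) lay below its 3 low-dose libraries. Col6a6 had the highest (0.82, SE 0.49). The vascular list had a median of 0.05 and overlapping libraries for all 4 genes. Over the 42 genes, 3 lay above and 4 below, beside 5.23% and 5.34% of all genes.

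Against control, 0 of 42 genes passed at the low dose (5.4% of all genes did) and 0 at the high dose (0.376% of all genes did) by edgeR. Unadjusted p was under 0.05 for 9 and 4 genes, and DESeq2 called 2 at the low dose (Col6a1 higher, Col2a1 lower) and 1 at the high dose (Col17a1 lower), beside 13.4% and 7.01% of all genes. Col6a1 at the low dose was above all 3 controls, with a log2 fold change of 2.01 (standard error 0.70, edgeR adjusted p = 0.107), and without control 1 it rose by 3.40 (adjusted p = 0.0157). Col18a1 had the lowest log2 fold changes, -2.85 (low, SE 0.93, edgeR adjusted p = 0.0894) and -2.68 (high, SE 0.92, edgeR adjusted p = 0.154), with controls at 18.3, 174 and 13.9 CPM. Without control 2 these were -0.77 and -0.59. In the fit without control 2 and levodopa 2, Col11a1 (-0.97), Col15a1 (-1.31) and Col25a1 (-0.80) fell and Col9a3 rose (0.84) at the low dose against control, 4 of 42 beside 8.33% of all genes. Vascular medians were -0.21 and -0.11, meningeal medians 0.37 and 0.17 and neuronal medians -0.22 and 0.17.

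Chains that assemble together differed in how tightly their RNAs were tied across the 15 libraries, given here as a description of their read counts. Col4a2 had 1.09 (control 2) to 2.08 (MPTP 1) reads for each read of Col4a1, with a median of 1.71. Over the 325 pairs of the 26 collagen genes with at least 100 reads in every library, this log2 ratio had the smallest SD (0.26), against a median SD of 1.0. The next pairs were Col4a1 with Col5a2 (0.28), Col9a3 with Col20a1 (0.30) and Col2a1 with Col9a2 (0.31), which join different collagen types. Col6a1 had 1.23 (MPTP 1) to 8.31 (low-dose 1) reads per read of Col6a2, with an SD of 0.99 in the log2 ratio. That ratio was 1.23 to 1.96 in the MPTP libraries and 6.25 to 8.31 in the low-dose libraries, without overlap. Col6a3 had 0.352 to 1.61 reads per read of Col6a2, and Col9a2 had 0.159 (low-dose 3) to 1.46 (MPTP 1) reads per read of Col9a3. Col5a1 had 0.970 to 16.3 reads per read of Col5a2, highest in control 2 and levodopa 2 (16.3 and 12.7). Col4a6 had 0.151 to 0.311 reads per read of Col4a5, a spread close to that of the main type IV pair.

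Col4a1 and Col4a2 lie head to head on chromosome 8 (11198423 to 11312889 and 11312805 to 11449287 of GRCm38.p6). Their RefSeq start sites in the promoter table, 11312826 on the minus strand for Col4a1 and 11312805 on the plus strand for Col4a2, are 21 bases apart. The stretch that holds both is shown because this pair had the most even read ratio, at chr8:11312801-11312830 on the plus strand, with the 22 bases from 1 start site to the other in capitals.
Col4a2: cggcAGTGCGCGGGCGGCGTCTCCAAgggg
The start sites of Col4a6 and Col4a5 on chromosome X are 1343 bases apart, with no overlap of the annotated genes at their heads. The annotated Col4a1 and Col4a2 genes overlap from 11312805 to 11312889, a stretch that includes the 22 bases in capitals.

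**Figure D4:**
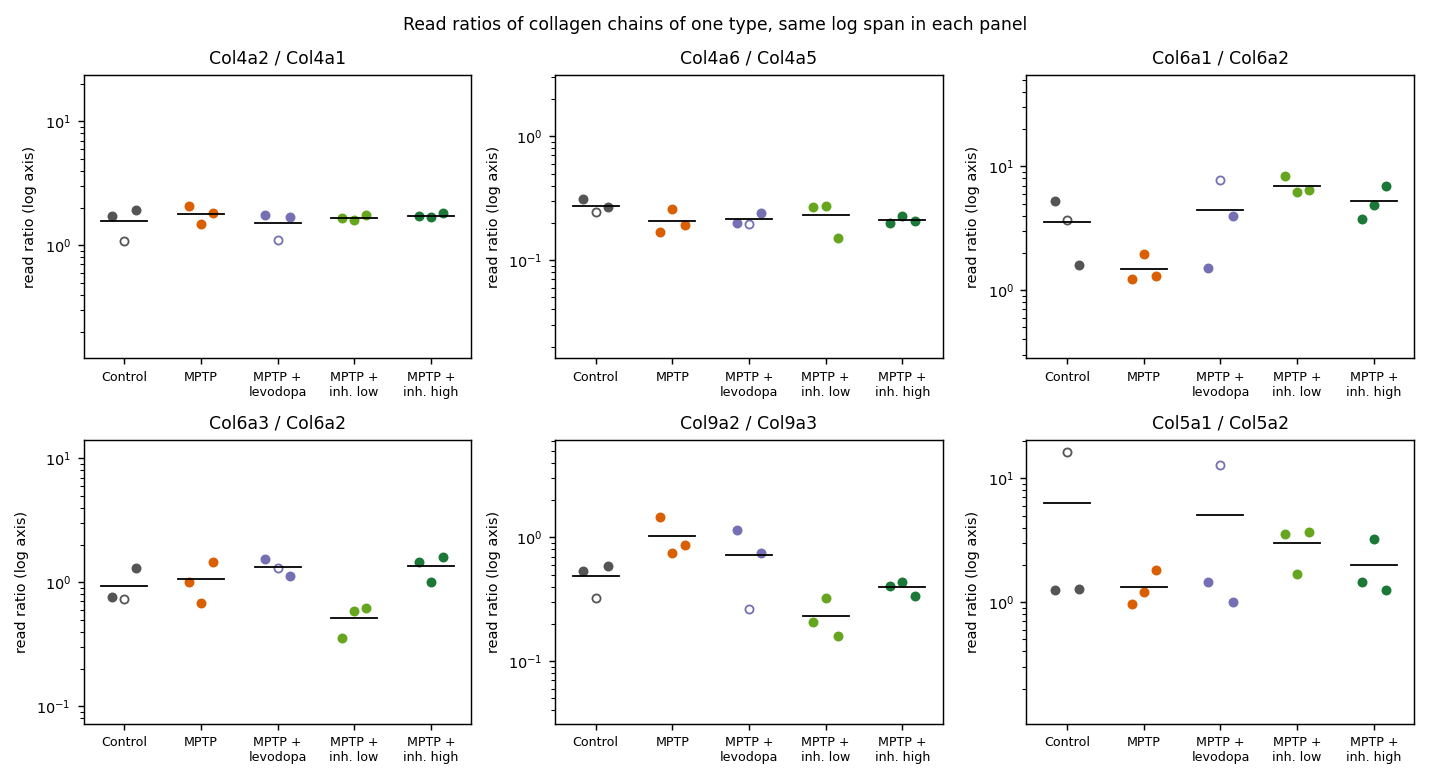
Reads of 1 collagen chain divided by reads of a partner chain in each library, on log axes that span the same factor in every panel. Points are libraries, bars are means of 3, and open points are control 2 and levodopa 2; Col4a2 over Col4a1 stayed between 1.09 and 2.08, while Col6a1 over Col6a2 ran from 1.23 to 8.31 and was highest in low-dose 1.

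Collagen genes differed widely in the libraries with high cerebellar markers, control 2 and levodopa 2. In both libraries 6 genes were above and 15 below all other 13 libraries, beside 20.2% and 20.3% of all genes tested. The remaining 21 met neither rule, which does not place them all inside the range of the 13. Col16a1, for example, was below that range in control 2 alone (17.5 CPM, where the lowest of the 13 was 29.6 CPM). Of the vascular list, Col18a1 was above (174 and 154 CPM against 7.47 to 30.3 CPM), while Col4a1 (13.6 and 26.9 against 34.2 to 76.1 CPM), Col4a2 (14.8 and 29.7 against 55.0 to 133 CPM) and Col15a1 (2.97 and 4.62 against 7.40 to 34.3 CPM) were below. Endothelial markers summed to 284 CPM in control 2, against 289 and 359 CPM in controls 1 and 3. They summed to 515 CPM in levodopa 2, against 571 and 468 CPM in levodopa 1 and 3. Their part in these collagen values was not tested. Of the meningeal list, 1 gene was above (Col5a1, 64.1 and 63.1 against 8.69 to 30.9 CPM) and 4 were below. Of the neuronal list, 0 were above and 2 below, Col25a1 (2.45 and 6.20 against 61.9 to 151 CPM) and Col11a1 (8.32 and 17.9 against 22.7 to 119 CPM). The other genes above were Col27a1, a fibrillar collagen (93.1 and 140 against 8.50 to 23.7 CPM), Col7a1, of skin anchoring fibrils (27.3 and 30.8 against 4.16 to 12.9 CPM), Col17a1 (8.67 and 3.14 against 0.386 to 1.57 CPM) and the membrane-spanning Col13a1 (4.09 and 8.18 against 0.707 to 1.87 CPM). These 2 libraries are in different groups and were not chosen by treatment, so the values describe the libraries only.

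**Figure D5:**
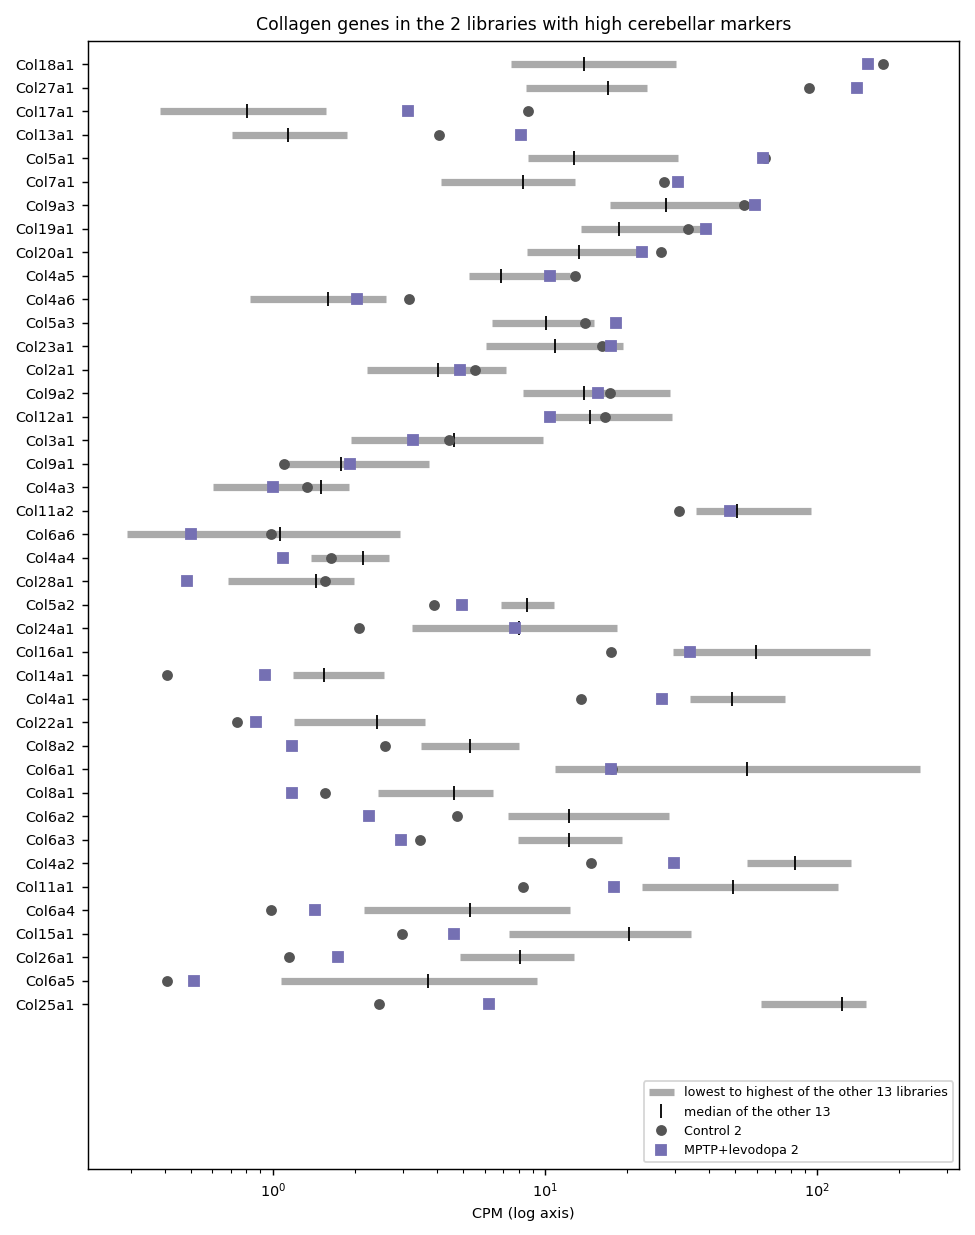
CPM (log axis) of 41 collagen genes in control 2 (circles) and levodopa 2 (squares), with the lowest to highest value of the other 13 libraries as grey bars and their median as a tick; Col10a1, at 0 reads in some libraries, is not drawn. Genes are ordered by their level in the 2 libraries relative to that median, from Col18a1 at the top (174 and 154 CPM) to Col25a1 at the bottom (2.45 and 6.20 CPM).

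Genes that act with collagens were taken from 4 lists. Of 31 genes that fold, modify and trim collagen chains, 2 rose and 1 fell at the low dose against MPTP by edgeR, beside 8.53% of all genes. DESeq2 called 4 higher and 1 lower, beside 14.5% of all genes. The collagen chaperone Serpinh1 had 17, 18.0 and 18.9 CPM after MPTP and 26.2, 30.3 and 22.4 CPM at the low dose, without overlap (log2 fold change 0.55, SE 0.13, edgeR adjusted p = 0.0243). Ppib, a proline isomerase of the endoplasmic reticulum, rose at the low dose (0.34, edgeR adjusted p = 0.0448) and at the high dose (0.42, edgeR adjusted p = 0.0430). At the high dose it was the only gene of the list called by edgeR, beside 1.97% of all genes. Adamts2, which trims procollagen, fell from 12.4 ± 1.82 to 5.01 ± 2.47 CPM (SD, n = 3 each) at the low dose (edgeR adjusted p = 0.0361). The list medians were -0.16 and -0.21.

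Of 10 collagen receptors, 1 fell by edgeR at the low and high dose against MPTP (beside 8.53% and 1.97% of all genes called) and against control (beside 5.4% and 0.376%). This was Itga1, the integrin alpha-1 chain that binds type IV collagen. It had 5.72, 10.1 and 8.29 CPM after MPTP, 3.51, 3.13 and 3.36 CPM at the low dose, 3.21, 2.25 and 2.59 CPM at the high dose and 5.64, 7.68 and 5.94 CPM in controls. All 6 inhibitor libraries were below all MPTP and control libraries, with log2 fold changes against MPTP of -1.27 (SE 0.22, edgeR adjusted p = 0.00816) and -1.58 (SE 0.23, edgeR adjusted p = 0.0114). Of 9 tested breakdown genes out of 11, 1 fell at the low dose by edgeR, beside 8.53% of all genes. It was the inhibitor gene Timp3, from 213 to 247 CPM after MPTP to 117 to 153 CPM (log2 fold change -0.78, edgeR adjusted p = 0.0265). None passed at the high dose by edgeR, where 3 reached an unadjusted p below 0.05. DESeq2 called 1 at the high dose, beside 7.39% of all genes.

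Of 14 basement membrane partners, 3 fell at the low dose and 4 at the high dose by edgeR, beside 8.53% and 1.97% of all genes called, and none rose. DESeq2 called 8 and 6 lower, beside 14.5% and 7.39% of all genes. At the low dose the edgeR calls were Sparc, a collagen IV-binding glycoprotein (1460, 1220 and 1180 CPM after MPTP, then 339, 738 and 386 CPM, log2 fold change -1.40, edgeR adjusted p = 0.0188), the laminin chain gene Lama1 (-0.98) and fibronectin, Fn1 (-1.07). At the high dose they were the perlecan gene Hspg2 (11.4, 14.1 and 10.7 CPM, then 6.11, 4.29 and 5.54 CPM, log2 fold change -1.18, edgeR adjusted p = 0.0407) and the laminin chain genes Lamb2 (-0.70), Lamc1 (-0.54) and Lamc3 (-1.17). The list medians were -0.59 and -0.66. In MPTP against control, levodopa against MPTP and high against low dose, 0 genes of the 4 lists passed by edgeR, where 10, 2 and 2 reached an unadjusted p below 0.05 and 0 were called by DESeq2 in each. Apart from Itga1 at the low dose against MPTP, the calls of partner genes depended on single libraries. With each of the 6 libraries of a comparison left out in turn, Itga1 at the low dose against MPTP kept its call all 6 times (adjusted p from 0.0112 to 0.0423). Itga1 kept it 3 times at the high dose against MPTP, where leaving out MPTP replicates 2 or 3 or high-dose replicate 2 ended it, 1 time at the low dose and 0 times at the high dose against control. Lama1 kept its call 2 times, Serpinh1, Sparc, Adamts2, Fn1, Lamc3 and Ppib at the low dose 1 time each, and Timp3, Hspg2, Lamb2, Lamc1 and Ppib at the high dose 0 times, with no change of sign.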

How the data were processed

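RNA from 15 brain samples was made into stranded mRNA libraries (TruSeq kit), per the labels' protocols. The authors deposited raw read counts per gene symbol, and per the submitters' processing notes worked on GRCm38/mm10 with HISAT2 2.1.0, StringTie 2.1.3b, bcl2fastq 2.20.0 and Trimmomatic. Not given in the sources used here are the annotation, the strand setting and the treatment of reads shared between genes, so overlapping genes such as Col4a1 and Col4a2 could share reads. No column of per-sample values was left out.

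Samples were grouped by their labels. Counts were fitted for all 15 libraries in R 4.3.3 with edgeR 4.0.16 (quasi-likelihood test, TMM scaling, filterByExpr by group, no covariates), and p-values were adjusted by Benjamini-Hochberg over 21821 genes with a threshold of 0.05. CPM values are TMM-scaled. Fold changes are edgeR estimates with standard errors on the log2 scale. DESeq2 1.42.0, RLE scaling, other filters, a replicate block, fits of 2 groups, omission of single libraries and omission of both cerebellum-rich libraries were alternatives. The fit was tested on simulated data for the low dose against MPTP. It recovered 36 of 100 genes changed 2-fold and 84 of 100 changed 4-fold, with 3 false calls among 21426 genes. Most 2-fold changes were thus missed. No 2 replicates agreed within sampling noise (chi-square per degree of freedom 31.7 to 512). Deviations of same-numbered samples correlated at -0.297 to 0.239, and the numbers were not taken to pair samples.

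Gene positions and start sites are from RefSeq GRCm38.p6, and exon lengths from GENCODE M21. Genes were named if they were on the vascular, meningeal or neuronal list, passed in a comparison, or had its highest or lowest fold change. Up to 4 called genes of each partner list, and markers beside a collagen result, were also named. Other named genes were chosen after their values were seen. Members and lists were chosen with earlier results of these data known.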

Additional observations from a re-analysis of the deposited data

How the results depend on the processing

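Directions under the alternatives were followed only for chosen collagen and partner genes in each comparison, not for every collagen gene. Among those followed, Col6a1 turned in MPTP against control, at 0.09 without control 1 (range over omissions -1.76 to 0.09). Col6a3 turned in low dose against MPTP, at -0.11 without MPTP replicate 2 and -0.10 without low-dose replicate 3 (range -0.11 to 0.20). No other direction followed turned. Genes not followed could also turn. For example, Col18a1 had a log2 fold change of -1.64 in MPTP against control. Its controls had 18.3, 174 and 13.9 CPM and its MPTP libraries 30.3, 18.0 and 18.0 CPM, so control 2 alone was above the MPTP range. Over single-library omissions, collagen genes called in low dose against MPTP numbered 0 to 1 higher and 0 to 2 lower, and in low dose against control 0 to 1 in each direction. All genes called ranged from 421 to 1300 (low against MPTP), 18 to 138 (high against MPTP), 78 to 1444 (low against control), 15 to 65 (high against control) and 0 to 1 (levodopa against MPTP).

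Collagen genes called in low dose against MPTP were 2 higher and 3 lower with DESeq2 (14.5% of all genes). With only the 2 groups fitted they were 6 higher and 9 lower (20.8% of all genes). Without both cerebellum-rich libraries they were 4 higher and 11 lower (23.7% of all genes). In high dose against MPTP, in the same order of settings, they were 1 higher and 2 lower (7.39% of all genes), 4 higher and 11 lower (17.5%), and 2 higher and 8 lower (11.1%). In low dose against control DESeq2 gave 1 in each direction, and the fit without both cerebellum-rich libraries 1 higher and 3 lower. In high dose against control DESeq2 gave 1 lower. The cause of these changes was not tested.

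All genes called with DESeq2 were 51 (MPTP against control), 2 (levodopa against MPTP), 3282 and 1628 (low and high against MPTP), 2 (high against low), and 2702 and 1366 (low and high against control). In the 4 comparisons of low and high dose with MPTP and then with control, all genes called were 1861, 429, 1178 and 82 as reported, 1224, 214, 571 and 35 with no filter, 4253, 3560, 11 and 3 with only the 2 groups, and 5288, 2477, 1859 and 165 without both cerebellum-rich libraries. A minimum of 1 CPM gave 163 in high dose against control.

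The replicate block, which rests on a shared number only, gave 1723, 226, 1066 and 46 of all genes in those 4 comparisons and 1 higher and 2 lower collagen genes in low dose against MPTP, where Col9a2 had adjusted p = 0.0550. Rare RNAs limit precision, with 0 to 16 reads for Col10a1.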
